A study of Mus musculus with 12 samples.

Results

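The B lymphoid genes are 32 mouse genes that mark cells of the B lineage, picked by symbol from a table of 24107 genes, and all 32 were found there. They were set out as 14 early B genes, 16 mature B genes and 2 plasma cell genes. RNA was measured in 4 groups of 3 libraries from C57BL/6 mice. Control megakaryocyte-erythroid progenitors (control MEP, the marrow cells that give rise to platelets and red cells) and control whole bone marrow were taken from wild-type mice. Leukemic MEP (L-MEP) and GFP+ bone marrow cells carried Prdm16s, the short form of the transcriptional regulator Prdm16, and were taken from leukemic recipient mice. GFP+ marrow was thus a selected fraction of a recipient's marrow, and control marrow was whole. Selection, transplantation, leukemia and Prdm16s differed together between the groups and cannot be told apart. Whether the 3 libraries of a group stem from different animals is not stated in the labels, and p-values therefore measure the spread between libraries, which may be technical in part. Sex, read from Xist and the Y-linked Ddx3y, also differed between the groups.

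B cells arise in bone marrow from lymphoid progenitors. Ebf1 and Pax5 commit a progenitor to the lineage, the Rag recombinase and terminal transferase assemble the antibody heavy chain gene, and the new heavy chain pairs with the surrogate light chain of Vpreb and Igll1 proteins. This pre-B cell receptor signals through the Cd79a and Cd79b pair, the kinase Btk and the adaptor Blnk. Later stages carry Cd20 (Ms4a1), Cd22, Cd23 (Fcer2a) and the complement receptor Cr2, and antibody-secreting plasma cells depend on Xbp1. Several of these genes are also used outside the lineage: Btk in myeloid cells, Cd24a in red cell precursors and granulocytes, and Xbp1 in any cell with a high secretory load.

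Expression was given as FPKM, fragments scaled by gene length and library depth, from which whole reads could be recovered. The 6 control libraries held 6716367 to 8986188 reads. L-MEP 1, 2 and 3 held 9706323, 7218790 and 571537 reads, and GFP+ marrow 1, 2 and 3 held 7027785, 1149549 and 9435926. L-MEP 3 stood apart, with a Pearson r across genes of 0.81 and 0.79 to L-MEP 1 and 2, which had 0.97 between them. The summed level of 8 neutrophil genes was 885 and 2249 FPKM in L-MEP 1 and 2 and 89785 FPKM in L-MEP 3, and that of 8 erythroid genes was 578 and 484 against 87.4 FPKM. Its B lineage values rest on few reads, since 1 read of Vpreb1 was worth 2.18 FPKM there. Xist was at 39.2 to 57.1 FPKM in replicates 1 and 2 of both Prdm16s groups and at 0.0904 FPKM or below in the other 8 libraries, and Ddx3y was at most 0.392 FPKM in the first 4 and at 10.3 to 27.6 FPKM in the other 8. The libraries of each Prdm16s group thus did not all come from 1 animal, and all 6 control libraries had the male pattern. With the male-pattern libraries alone only replicate 3 stays in each Prdm16s group, so counts over them are not given. Levels below are FPKM in replicates 1, 2 and 3 in that order, and changes are log2 fold changes ± SE after adding 1 to each FPKM value, a scale on which low genes change less than their true ratio. Adjusted p-values are from limma over all 11462 genes with at least 1 FPKM in at least 3 libraries.

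GFP+ leukemic marrow was compared with control marrow, and most early B genes were lower in it. Without any filter on low values, 17 of the 32 genes fell (limma, adjusted p under 0.05), where 4.95% of all 16728 genes above 0 were called lower. None of the 32 rose in that limma fit, where 1.91% of genes did. Fcer2a and Xbp1 were higher at an unadjusted p under 0.05. Voom on the recovered reads called 2 of the 24 tested members higher, beside 804 of all 11462 tested genes, a similar share. The median log2 fold change of the 32 genes was -1.41, and that of all genes -0.03. The GFP+ libraries all lay below the control marrow libraries for 23 of the 32 genes, against 16.8% of genes above 0, and all above them for Fcer2a, Ralgps2 and Xbp1, against 12.5%. By group, 11 of the 14 early genes, 6 of the 16 mature genes and neither plasma cell gene fell. In the filtered fit, 24 of the 32 could be tested; 15 fell and Xbp1 rose, with backgrounds of 6.03% and 3.02%. Of those 24, 9 had at most 2 libraries of at least 1 FPKM outside control marrow, so they entered the test through the group where they were high. The 8 not tested were Rag1, Pax5, Cd22, Cr2, Blk, Cxcr5, Bach2 and Tnfrsf17. Fewer B lineage cells and less RNA per cell cannot be told apart in these bulk libraries.

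**Figure D1:**
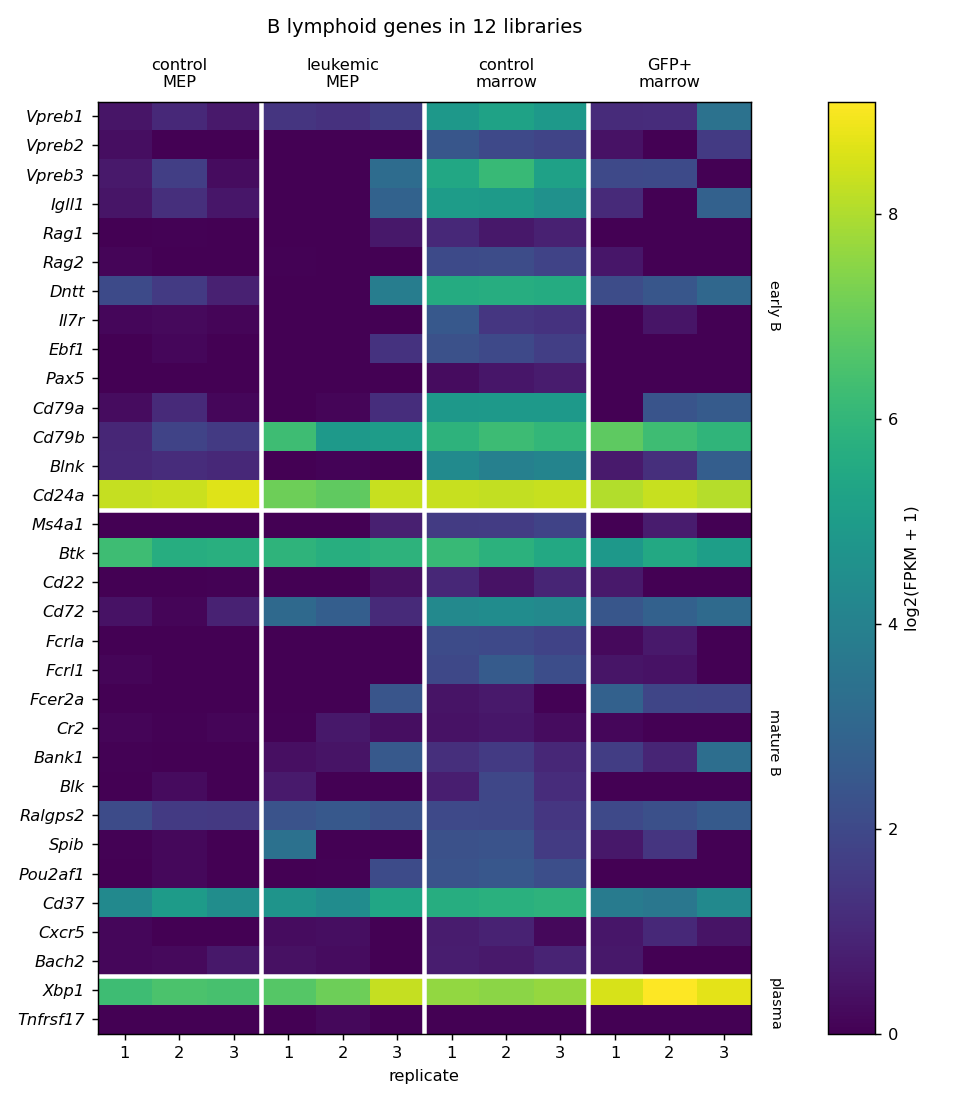
Level of each of the 32 B lymphoid genes (rows, early B, mature B and plasma cell from top to bottom) in the 12 libraries (columns, 3 replicates per group) as log2(FPKM + 1), by colour. Most early B rows are bright in the control marrow columns and dark elsewhere, while Cd79b, Cd24a, Btk, Cd37 and Xbp1 are visible in both Prdm16s groups.

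Vpreb1 (chr16:16868401-16869255, mm10) and Vpreb2 (chr16:17979445-17981274), which encode the variable-like part of the surrogate light chain, are near copies. Their 429 coding bases differ at 9 positions with no gap (97.9% identity), and the longest stretch they share is 196 bases. Their first 300 coding bases, from the GENCODE M21 transcripts, are shown because reads from such stretches can be assigned to either gene, so their split in the table is uncertain. Capitals mark the positions at which they differ.
Vpreb1: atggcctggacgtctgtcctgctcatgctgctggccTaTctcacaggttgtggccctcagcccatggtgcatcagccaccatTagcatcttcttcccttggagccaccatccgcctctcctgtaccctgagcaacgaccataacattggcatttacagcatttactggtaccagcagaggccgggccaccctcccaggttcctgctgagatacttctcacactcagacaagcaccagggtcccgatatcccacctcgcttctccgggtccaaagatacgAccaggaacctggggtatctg
Vpreb2: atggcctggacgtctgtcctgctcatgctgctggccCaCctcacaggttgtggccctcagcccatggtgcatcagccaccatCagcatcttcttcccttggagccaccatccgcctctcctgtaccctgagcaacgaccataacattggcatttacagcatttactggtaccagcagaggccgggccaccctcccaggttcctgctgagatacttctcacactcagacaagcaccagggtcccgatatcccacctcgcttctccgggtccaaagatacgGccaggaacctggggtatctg

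The 4 surrogate light chain genes all fell, and Vpreb3 and Igll1 had the largest falls of the 24 tested members on the log2(FPKM + 1) scale. By ratio of means several scarcer genes, Ebf1 and Pou2af1 among them, fell further. Vpreb1 was at 28.1, 37 and 29.4 FPKM in control marrow and at 1.2, 1.21 and 9.68 in GFP+ marrow, a change of -3.11 ± 0.50 (limma, adjusted p = 0.00238). Every GFP+ library was below every control library, and GFP+ 3 kept 30.7% of the control mean where GFP+ 1 and 2 kept 3.80% and 3.83%. Vpreb3 (chr10:75943024-75949657), a chaperone-like partner of the pre-B receptor, was at 43.2, 69.6 and 35.7 FPKM and 3.05, 3.08 and 0 FPKM, and fell by 4.25 ± 0.81 (adjusted p = 0.00642). Here GFP+ 3 was the library with no read at all, the reverse of Vpreb1. Igll1 (chr16:16860671-16863985), the constant-like part of the surrogate chain, was at 31.3, 30.1 and 23.1 and 1.13, 0 and 6.05 FPKM. It fell by 3.55 ± 0.77 (adjusted p = 0.0125), and the call was lost without control marrow 2 or without GFP+ 2. Vpreb2 was low throughout, at 4.37, 3.02 and 2.66 FPKM in control marrow (14, 12 and 9 reads) and 0.357, 0 and 1.92 in GFP+ marrow (1, 0 and 7 reads). Its change of -1.44 ± 0.36 (adjusted p = 0.0256) was lost when any control marrow library, GFP+ 1 or GFP+ 2 was left out.

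Genes of antibody gene recombination fell as well. Dntt, the terminal transferase that adds bases at antibody gene joints, was at 47.7, 49.4 and 47.6 FPKM in control marrow. It was at 3.38, 4.35 and 7.14 FPKM in GFP+ marrow, so each of these libraries kept 7.0 to 14.8% of the control mean. Its change of -3.10 ± 0.80 had an adjusted p of 0.0321 and missed the threshold when any of the 6 marrow libraries was left out. It was also lost without the filter (adjusted p = 0.0649), so Dntt is not among the 11 early genes counted above. Rag2, a subunit of the recombinase, was at 3.16, 3.34 and 2.58 FPKM in control marrow and 0.451, 0 and 0 FPKM in GFP+ marrow, with 254 reads in all in the first group and 10 in the second. It fell by 1.83 ± 0.24 (limma, adjusted p = 0.000639). Rag1, the other subunit, was at 0.502 to 1.04 FPKM in control marrow (124 reads) and had no read in GFP+ marrow, which is at least 27.7-fold lower with a floor of 3 reads over the group. Without the filter its change was -0.82 (adjusted p = 0.0113).

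The factors that commit cells to the lineage had no read in the 3 GFP+ marrow libraries. Ebf1 was at 3.81, 3.02 and 2.25 FPKM in control marrow, from 247, 243 and 154 reads, and at 0 in all 3 GFP+ libraries. That is at least 141-fold lower, with a floor of 3 reads over the group, and it fell by 1.99 ± 0.35 on the log2(FPKM + 1) scale (adjusted p = 0.00354). Pax5 reached only 0.222 to 0.631 FPKM in control marrow, from 13 reads at the fewest, so its absence from GFP+ marrow bounds the difference at only 2.81-fold. Il7r, the receptor for the growth factor of early B cells, was at 4.69, 1.7 and 1.51 FPKM in control marrow and 0, 0.441 and 0 in GFP+ marrow, where its 2 reads came from GFP+ 2. It fell by 1.58 ± 0.32 (adjusted p = 0.00851).

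The receptor chain Cd79a and the adaptor Blnk also fell. Cd79a (chr7:24897497-24901858) was tight in control marrow, at 27.7, 29.4 and 28.4 FPKM, and at 0, 4.19 and 5.16 FPKM in GFP+ marrow, a change of -3.22 ± 0.59 (limma, adjusted p = 0.00502). Blnk, which links the receptor's kinases to calcium signalling, was at 19.4, 14.7 and 16 FPKM in control marrow and 0.584, 1.33 and 5.57 in GFP+ marrow, a change of -2.61 ± 0.42 (adjusted p = 0.00238). For both genes the groups did not overlap and GFP+ 3 was the highest GFP+ library.

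**Figure D2:**
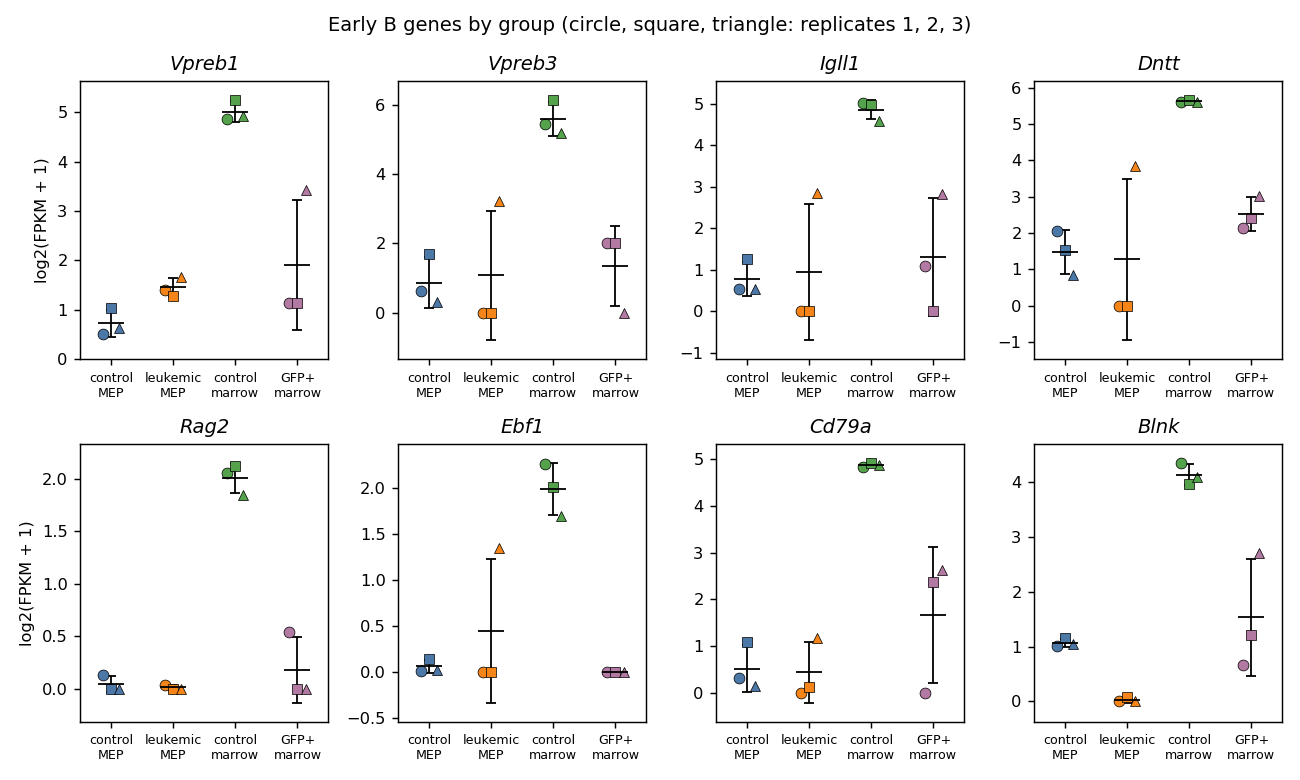
Level of 8 early B genes as log2(FPKM + 1) in the 4 groups. Circles, squares and triangles are replicates 1, 2 and 3, the bar is the mean and the whiskers are 1 SD (n = 3). Control marrow lies above GFP+ marrow in each panel, Ebf1 is at 0 in all 3 GFP+ libraries, and L-MEP 3 (triangle) is above L-MEP 1 and 2 for Vpreb1, Vpreb3, Igll1, Dntt, Ebf1 and Cd79a.

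The remaining early B transcripts of GFP+ marrow were not spread alike over the libraries. Leaving aside Cd79b and Cd24a, the other 12 early genes had 2430 to 3339 reads per control marrow library and 100, 24 and 467 reads in GFP+ 1, 2 and 3. These reads are not scaled for depth, which was lowest in GFP+ 2. In FPKM the 12 genes summed to 191 to 242 in control marrow and to 10.1, 14.6 and 35.5 in GFP+ 1, 2 and 3. By that measure GFP+ 3 was still the highest, and GFP+ 2 was above GFP+ 1. All 12 were detected in each control marrow library, and 7, 6 and 6 of them in the GFP+ libraries. GFP+ 3 held 63 reads of Vpreb1, 111 of Igll1, 129 of Dntt, 58 of Cd79a and 99 of Blnk. It held none of Vpreb3, Rag1, Rag2, Il7r, Ebf1 or Pax5.

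Cd79b and Cd24a did not pass the test in marrow with or without the filter. Cd79b (chr11:106311341-106314562), the signalling partner of Cd79a, was at 57.5, 75 and 63.5 FPKM in control marrow and 114, 76 and 60.3 FPKM in GFP+ marrow, with overlapping groups and a change of 0.30 ± 0.37 (adjusted p = 0.670). In control marrow the level of Cd79b per length was 2.08 to 2.55 times that of Cd79a. The ratio was 18.1 and 11.7 in GFP+ 2 and 3, and in GFP+ 1 there were 913 reads of Cd79b and none of Cd79a. The 2 chains of this dimer were thus further apart in level in every GFP+ library than in control marrow. Cd24a, a surface glycoprotein of many marrow cells, was at 318, 303 and 321 FPKM in control marrow and 266, 320.3 and 272 FPKM in GFP+ marrow, a change of -0.14 ± 0.32 (adjusted p = 0.843).

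Of the mature B genes, 5 of the 11 tested fell, where 6.03% of all tested genes did. Of these, Ms4a1, Fcrla, Fcrl1 and Pou2af1 had at most 1 library of at least 1 FPKM outside control marrow and so entered the test through it. Without the filter 6 of 16 fell, Blk among them, where 4.95% of genes did. Ms4a1, the Cd20 gene, was at 2.01, 2.04 and 2.57 FPKM in control marrow and had 3 reads in GFP+ marrow, all in GFP+ 2 (adjusted p = 0.0101, change -1.44 ± 0.30). The Fc receptor-like genes Fcrla and Fcrl1 were at 3.18, 3.06 and 2.57 and at 2.94, 5.04 and 3.43 FPKM in control marrow. In GFP+ marrow they were at 0.177, 0.536 and 0 and at 0.413, 0.357 and 0 FPKM, changes of -1.69 ± 0.24 (adjusted p = 0.00101) and -1.93 ± 0.25 (adjusted p = 0.000639). Pou2af1, a B cell coactivator of octamer-binding factors, was at 4.02, 4.59 and 3.51 FPKM in control marrow and had no read in GFP+ marrow. That is at least 55.6-fold lower, with a change of -2.33 ± 0.45 (adjusted p = 0.00692). Blk, a Src-family kinase of B cells, was below the filter at 0.703 to 2.84 FPKM in control marrow. It too had no read in GFP+ marrow, at least 21.1-fold lower, and fell without the filter (adjusted p = 0.0189).

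Cd37 fell without being lost, and Cd72 did not pass the test. Cd37, a tetraspanin of leukocytes, was at 49.4, 54.2 and 58.5 FPKM in control marrow and 12.7, 11.2 and 19 in GFP+ marrow. It fell by 1.87 ± 0.29 (limma, adjusted p = 0.00168), to 20.8 to 35.2% of the control mean. Cd72, an inhibitory coreceptor of B cells, was at 18.3, 20.6 and 18.3 and 4.38, 6.16 and 7.77 FPKM. These groups did not overlap, but the change of -1.52 ± 0.45 did not pass the test (adjusted p = 0.0551). Btk was at 69.5, 56.6 and 44.2 FPKM in control marrow and 27.9, 43.5 and 32.9 FPKM in GFP+ marrow, again without overlap and with a change of -0.69 ± 0.24 that did not pass (adjusted p = 0.102). Spib, an Ets factor, was at 1.96 to 4.07 FPKM in control marrow and 0 to 1.66 FPKM in GFP+ marrow (change -1.39 ± 0.73, adjusted p = 0.280).

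A few members pointed upward in GFP+ marrow. Xbp1 (chr11:5520641-5525993), the transcription factor of the unfolded protein response that plasma cells require, was at 195, 182 and 202 FPKM in control marrow and 369, 546 and 421 FPKM in GFP+ marrow. All 3 GFP+ libraries were above all 3 controls, and it rose by 1.18 ± 0.33 (adjusted p = 0.0458). This call was lost in 13 of 25 alternatives, the omission of any 1 control or GFP+ library among them, with an adjusted p of at most 0.150. Tnfrsf17, the BCMA receptor of plasma cells, had 1 read in all 12 libraries, in L-MEP 2. Fcer2a, the low-affinity IgE receptor, was at 0.390, 0.524 and 0.0411 FPKM in control marrow and 6.14, 2.7 and 2.67 FPKM in GFP+ marrow, from 124, 9 and 70 reads. Its groups did not overlap and its mean was 12.1-fold higher, but the change of 1.82 ± 0.55 did not pass the test (adjusted p = 0.0595). Bank1, a scaffold of the B cell receptor, was at 1.33, 1.9 and 1.01 and 2.16, 0.935 and 8.72 FPKM (change 0.71 ± 0.61, adjusted p = 0.521), and Ralgps2, an exchange factor for Ral, at 1.73 to 3.01 and 3.06 to 4.96 FPKM (change 0.46 ± 0.28, adjusted p = 0.353). Cd22, Cr2, Cxcr5 and Bach2 stayed at or below 1.06 FPKM in every library, and none of the 4 passed the test without the filter. In that fit Cd22, Cr2 and Bach2 pointed downward in GFP+ marrow at an unadjusted limma p under 0.05, Cr2 and Bach2 without overlap.

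**Figure D3:**
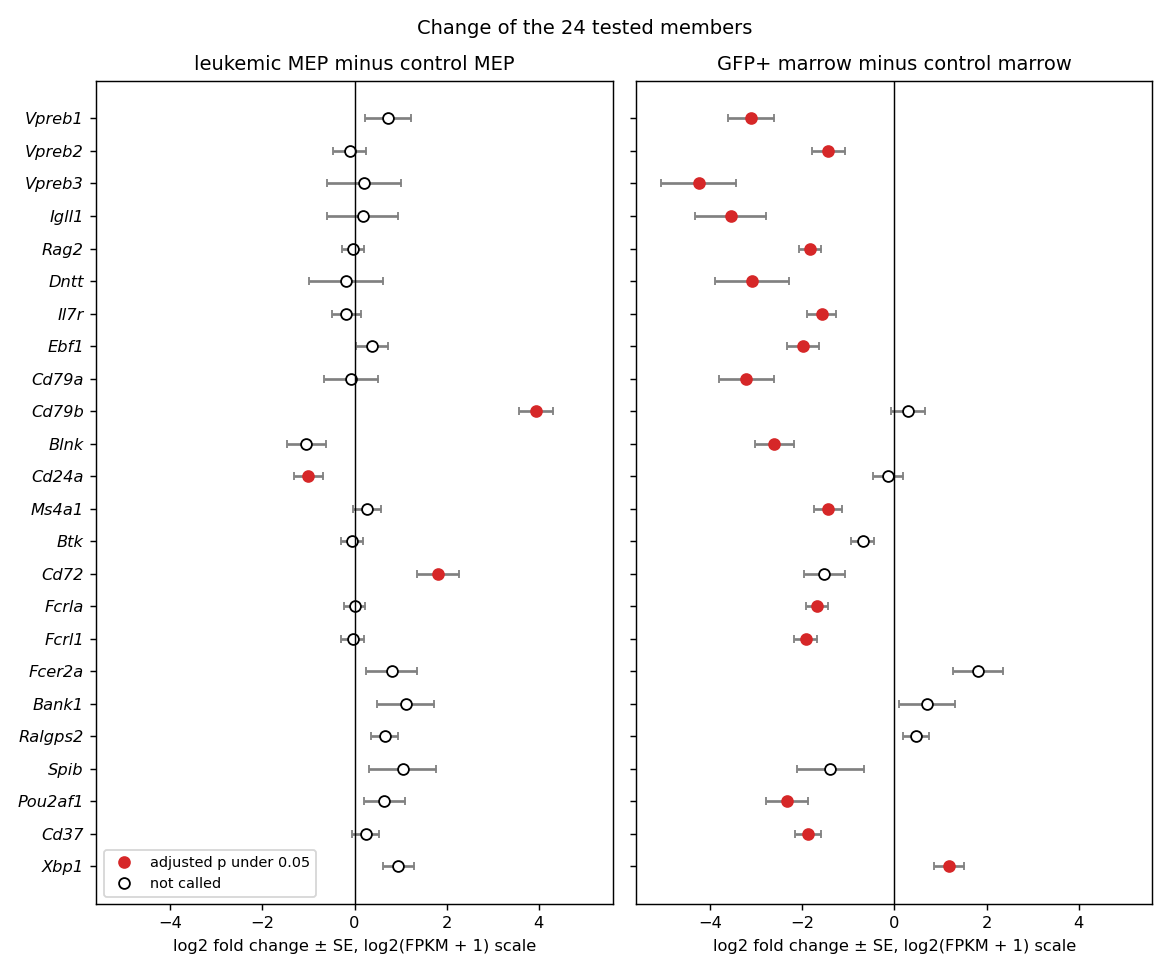
Log2 fold change ± SE on the log2(FPKM + 1) scale of the 24 tested members, L-MEP minus control MEP on the left and GFP+ marrow minus control marrow on the right. Filled red points have an adjusted p under 0.05 (limma, n = 3 per group): 3 on the left (Cd79b, Cd72, Cd24a) and 16 on the right, of which only Xbp1 lies above 0.

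Leukemic MEP were compared with control MEP in the same fit. Of the 24 tested members, Cd79b and Cd72 rose and Cd24a fell, while 13.7% of all genes were called higher and 12.3% lower, so the members' share was not above the background. Without the filter, limma called 2 of 32 higher (background 8.23%). The median change of the 32 genes was 0.17, and the libraries did not overlap for 6 genes upward and 2 downward (backgrounds 15.6% and 14.9%). Without L-MEP 3, 2 tested members rose and 2 fell, beside 1722 and 1392 of all 11462 genes.

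Of the called members Cd79b rose most. It was at 0.959, 2.51 and 1.93 FPKM in control MEP and 75.9, 28.7 and 31.3 FPKM in L-MEP, from 1041, 289 and 23 reads, a 25.2-fold higher mean and a rise of 3.95 ± 0.37 (limma, adjusted p = 1.59e-05). The groups did not overlap and the rise held in all 25 alternatives. Cd79a stayed near 0, at 0.243, 1.11 and 0.105 FPKM in control MEP and 0, 0.0922 and 1.26 FPKM in L-MEP, the last 2 values from 1 read each. Cd79b thus reached 28.7 to 75.9 FPKM in leukemic MEP, beside 57.5 to 75.0 FPKM in whole control marrow, with 2 reads of its partner chain in all. Cd72 was at 0.357, 0.0895 and 0.837 FPKM in control MEP and 7.53, 5.54 and 1.11 FPKM in L-MEP, from 126, 68 and 1 reads, and rose by 1.81 ± 0.45 (adjusted p = 0.0112). L-MEP 3, with 1 read, was the lowest of the 3 and still above the controls. The call was lost when the fit held only the 2 MEP groups and among the libraries without Xist. Bank1 was at 0.0464, 0 and 0 FPKM in control MEP, from 3 reads in all, and 0.285, 0.406 and 4.83 FPKM in L-MEP, from 22, 23 and 20 reads. These groups did not overlap either, but the change of 1.11 ± 0.61 did not pass (adjusted p = 0.204).

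Cd24a was high in all MEP libraries. It was at 312, 332 and 397 FPKM in control MEP and 134, 117 and 325 FPKM in L-MEP, where L-MEP 1 and 2 were low and L-MEP 3 lay within the control range. Its change was -1.0 ± 0.32 (adjusted p = 0.0362), but the call was lost in 13 of 25 alternatives, among them the omission of any control library, of L-MEP 1 or 2, or of GFP+ 1. Xbp1 was at 76.5, 90.6 and 86.1 FPKM in control MEP and 104, 134 and 315 FPKM in L-MEP, above the controls in every library but with a change of 0.95 ± 0.33 that did not pass (adjusted p = 0.0541). L-MEP 3 again stood apart, at 315 FPKM. Blnk was at 1.02, 1.22 and 1.07 FPKM in control MEP, and a single read was seen in the 3 L-MEP libraries. The change of -1.04 ± 0.42 did not pass either (adjusted p = 0.0883). Btk overlapped between the MEP groups, at 75.4, 49.6 and 52.4 and 59.1, 51.2 and 57.5 FPKM, as did Cd37, at 19, 30.9 and 21.2 and 25.4, 20.5 and 40.5 FPKM. The changes were -0.06 ± 0.24 for Btk and 0.24 ± 0.29 for Cd37 (adjusted p = 0.887 and 0.569).

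The other early genes were rare in MEP of either kind. Vpreb1 was at 0.419, 1.05 and 0.546 FPKM in control MEP and 1.64, 1.43 and 2.18 FPKM in L-MEP, from 14, 9 and 1 reads, and its change of 0.73 ± 0.50 did not pass (adjusted p = 0.311). Dntt was at 3.13, 1.89 and 0.787 FPKM in control MEP and 0, 0 and 13.4 in L-MEP. Igll1 was at 0, 0 and 6.19 and Vpreb3 at 0, 0 and 8.34 FPKM in L-MEP. L-MEP 1 and 2 had no read of these 3 genes, and the values of L-MEP 3 came from 17 reads of Dntt, 8 of Igll1 and 3 of Vpreb3. L-MEP 3 also held 8 reads of Ebf1 and 5 of Pou2af1, neither of which had a read in the 3 GFP+ marrow libraries. Spib was at 9.44, 0 and 0 FPKM in L-MEP, where the 293 reads of L-MEP 1 stood alone. Fcrla had no read in any MEP library, and Pax5 had none either.

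**Figure D4:**
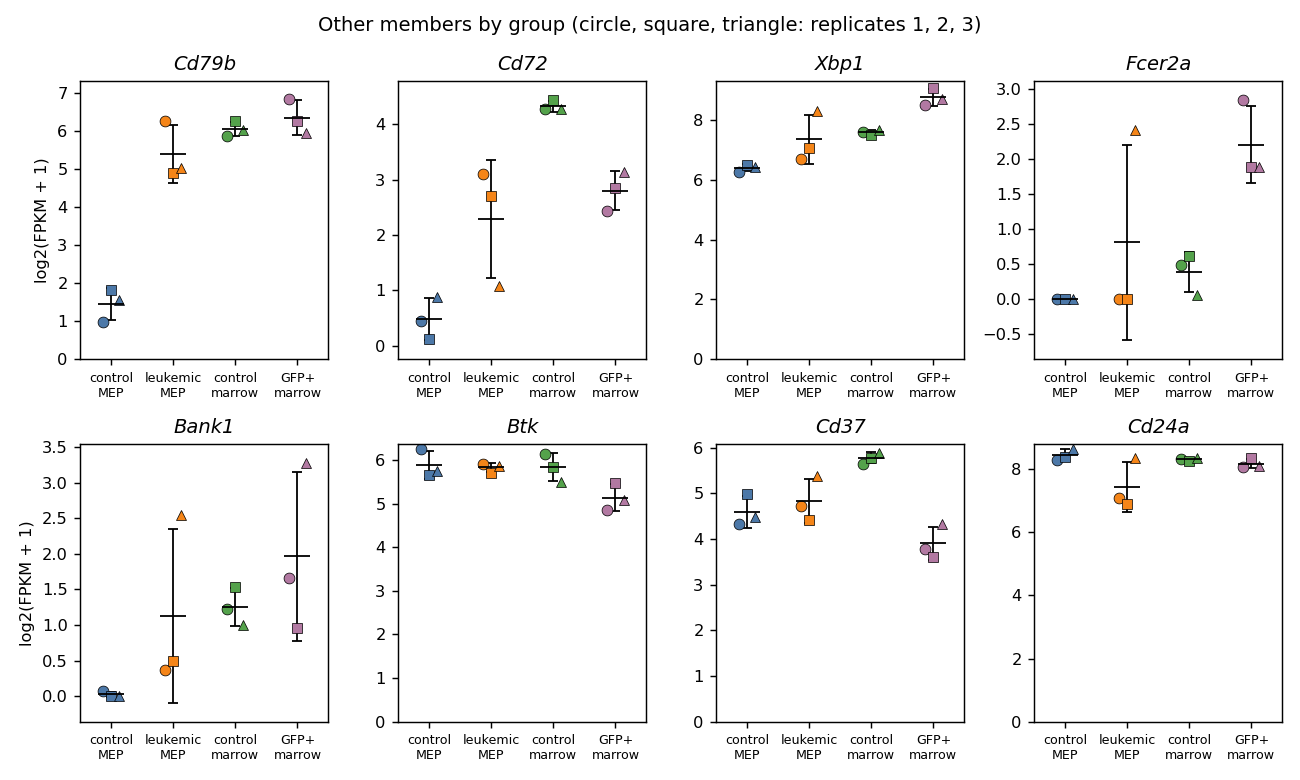
Level of 8 further members as log2(FPKM + 1) in the 4 groups, with symbols, bars and whiskers as in the plot of the early genes (n = 3). Cd79b is near 1.5 in control MEP and above 4.8 in each of the other 9 libraries, Xbp1 is highest in GFP+ marrow, and Cd37 is lowest there.

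The change in MEP and the change in marrow were then set against each other in 1 test. It passed for 11 of the 24 tested members, where 4.89% of all genes passed, and each of the 11 was more positive in MEP. Of these 11, 6 (Rag2, Fcrl1, Fcrla, Ebf1, Pou2af1 and Ms4a1) had at most 1 library of at least 1 FPKM outside control marrow and so entered the fit through the group where they were high. These 6 had means of only 0 to 0.0524 FPKM in control MEP. They had next to no room to fall there, so the positive sign was close to fixed once they fell in marrow. For Fcrla the change in MEP was 0, and its difference of 1.69 is its fall in marrow alone. Without the filter 12 of the 32 members passed, where 3.40% of genes did. These were 10 of the 11, without Vpreb3 (adjusted p = 0.0955), and also Rag1 and Pax5. Rag1 and Pax5 too were near the floor in control MEP, at means of 0.0188 and 0 FPKM. For Cd79b the difference was 3.64 ± 0.52 (adjusted p = 0.00212), with a called rise in L-MEP and no call in marrow. For Vpreb1 it was 3.84 ± 0.71 (adjusted p = 0.00923), with a called fall in GFP+ marrow and no call in MEP. Cd72 differed by 3.34 ± 0.63 (adjusted p = 0.0105), with a called rise in MEP and a change in marrow that did not pass. The other 8 were Rag2, Fcrl1, Cd37, Fcrla, Ebf1, Pou2af1, Ms4a1 and Vpreb3. Cd79a differed by 3.14 ± 0.84 and missed the threshold (adjusted p = 0.0534).

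The members were also compared between the control groups. Of the 24 tested, 18 were higher in control marrow than in control MEP (background 12.3%), all but Cd24a, Btk, Fcer2a, Bank1, Ralgps2 and Spib. None was lower by limma (background 2.63%), none at an unadjusted p under 0.05 and none by voom. Without the filter 21 of 32 were higher (background 8.73%), and 28 of 32 lay above MEP without overlap (background 22.3%). This comparison shares its libraries with the others. Between the Prdm16s groups, Xbp1 was higher in GFP+ marrow than in L-MEP (change 1.42 ± 0.33, adjusted p = 0.0433, background 2.08%) and limma called no member higher in L-MEP (background 0.977%). At an unadjusted p under 0.05, 2 were higher in L-MEP (Btk and Cd37), and voom called none. Without L-MEP 3, 5 members were higher in GFP+ marrow, where 1142 of all 11462 genes were. The Xbp1 call was lost in 17 of 25 alternatives.

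Genes around the 32 members were counted by pathway. The shares of all tested genes to read these counts against are 13.7% higher and 12.3% lower in L-MEP, and 3.02% higher and 6.03% lower in GFP+ marrow. Of 15 tested B lineage regulators, 6 rose and 2 fell in L-MEP, and in marrow Id3 fell and none rose. Without the filter 4 of 18 fell in marrow (background 4.95%), with the scarce Ikzf3, Irf4 and Lef1 beside Id3. Spi1, an Ets factor of myeloid and B cells, rose by 4.51 ± 0.52 in L-MEP (limma, adjusted p = 7.93e-05), and Tcf3 and Ikzf1, which act above Ebf1, fell, with changes of -1.21 ± 0.32 and -1.21 ± 0.33. Id3, an inhibitor of E proteins such as Tcf3, fell by 2.45 ± 0.30 in GFP+ marrow (adjusted p = 0.000413). Of 19 tested genes of B cell receptor signalling, 11 rose and 1 fell in L-MEP, against 1 and 2 in marrow. The adaptor Lat2, the phospholipase Plcg2 and the kinase Lyn, all also used by myeloid cells, rose by 4.33 ± 0.44, 3.38 ± 0.41 and 1.84 ± 0.23 in L-MEP. Markers of other cells moved in the same comparison: all 6 megakaryocyte genes rose, with sums of 9.11 to 121 FPKM in control MEP and 5642, 4641 and 292 FPKM in L-MEP, 6 of 8 neutrophil genes rose and 4 of 8 erythroid genes fell. The part of those cells in the rises in L-MEP was not tested. The tetraspanin Cd81 fell, with a change of -1.08 ± 0.29 in GFP+ marrow (limma, adjusted p = 0.0371), a call lost without the filter.

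Of 11 tested genes of Il7 receptor and Flt3 signalling, 7 rose in L-MEP (13.7% of all tested genes) and 4 did not pass. The cytokine-induced inhibitor Cish rose by 2.57 ± 0.33 and the receptor chain Crlf2 by 2.54 ± 0.43. In marrow Flt3, the receptor of early progenitors, fell by 2.97 ± 0.60 (adjusted p = 0.00866), from 27, 17.8 and 18.1 FPKM to 5.82, 1.77 and 0.0968, and Mcl1, a survival factor, rose by 0.80 ± 0.22 (adjusted p = 0.0436). Of 18 tested surface and survival receptors of B cells, 6 rose in L-MEP and 12 did not pass, and 1 rose and 7 fell in GFP+ marrow (3.02% and 6.03% of all tested genes). Tnfrsf13b, a receptor for the survival factors Baff and April, rose by 3.63 ± 0.34 in L-MEP, from 0.124, 0.155 and 0.161 FPKM to 11.4, 8.6 and 23.1 FPKM. The activation markers Cd86 and Cd83 fell, with changes of -3.33 ± 0.26 and -2.86 ± 0.45 in GFP+ marrow.

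Of 11 tested plasma cell and secretion genes, 1 rose and 1 fell in L-MEP, and 1 rose and 2 fell in marrow. The counts in L-MEP are near the shares of all tested genes (13.7% and 12.3%). Those in marrow are above the shares there (3.02% and 6.03%), though in a list this short they rest on 1 and 2 genes. Without the filter 1 of 15 rose and 5 fell in marrow, where 1.91% and 4.95% of genes did. Dnajb9, an endoplasmic reticulum chaperone gene, rose by 1.61 ± 0.22 in L-MEP and by 1.76 ± 0.22 in GFP+ marrow, where it was at 105, 108 and 65.3 FPKM against 28.4, 23.3 and 26.4 in control marrow. Mzb1, a chaperone of antibody assembly in B and plasma cells, fell by 3.39 ± 0.26 (adjusted p = 9.29e-06), from 11.1, 9.77 and 12.3 FPKM to 0.507, 0 and 0. Of 16 tested recombination cofactors and pre-B genes, Sox4 rose and Xrcc5 fell in L-MEP, and Cplx2 fell in marrow.

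Markers of other cell types moved between the same marrow groups. Of 8 macrophage genes, 7 fell in GFP+ marrow, with a summed level of 853 to 928 FPKM in control marrow and 23.9 to 31.8 FPKM in GFP+ marrow. All 8 erythroid genes fell, from 466 to 670 FPKM down to 39.2 to 121 FPKM, and 3 of 4 tested MHC class II genes fell, from 776 to 912 FPKM down to 104 to 451 FPKM. Without the filter 7 of 8 erythroid genes and only 1 of 5 MHC class II genes were called lower, where 4.95% of genes were. The 8 neutrophil genes summed to 67427 to 83344 FPKM in control marrow and 89556 to 125035 FPKM in GFP+ marrow, with a median change of 0.56. Of 6 tested T and NK cell genes 2 fell, Klrd1 by 2.16 ± 0.26 and Cd2 by 1.89 ± 0.34, where 6.03% of all tested genes did. Of 3 tested plasmacytoid dendritic cell genes Siglech fell, by 1.31 ± 0.25. Without the filter 4 of 10 T and NK genes and 3 of 6 plasmacytoid dendritic cell genes fell (background 4.95%). The summed T and NK list was almost wholly Nkg7. It was at 682, 838 and 869.8 FPKM in control marrow and 705, 929 and 1012 FPKM in GFP+ marrow. Cd3e and Cd3g had no read in GFP+ marrow, while Cd3d was at 0.806, 0 and 3.55 FPKM there and 1.31, 1.71 and 0.669 FPKM in control marrow. The part of these cell types in the falls of the B genes was not tested.

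Promoters of 27 of the 32 members were matched in RefSeq (GRCm38.p6), as 250 bases before to 50 bases after the start. They were searched on both strands for the E protein site CAGGTG, its relative CAGCTG, the Ebf1-type site CCCNNGGG and the octamer ATTTGCAT. CAGGTG was in promoters of 14 of the 27 members (51.9%), against 22.6% of all genes with a promoter in the table. The 14 included members that fell in GFP+ marrow (Vpreb1, Vpreb2, Igll1, Cd79a, Blnk, Fcrla, Cd37) and also Xbp1 and Fcer2a. CAGCTG was in 4 members (18.3% of genes), CCCNNGGG in 4 (15.4% of genes) and the octamer in Vpreb3 and Blnk alone (1.97% of genes). Dntt, Rag2, Ebf1, Il7r, Fcrl1 and Pou2af1 also fell there in the filtered fit, and their promoters held no match to any of these sites. The 250 bases before the start are shown for some members with a large fall in GFP+ marrow that carry a match, and for Xbp1, which rose there. Matches are in capitals. Dntt, which is not shown, had a larger change than Blnk (-3.10 against -2.61). Igll1 carries CCCNNGGG 231 bases, CAGCTG 158 bases and CAGGTG 8 bases before the start, and the octamer lies 45 bases before the start in Vpreb3 and 130 in Blnk. The Vpreb3 start used here lies inside the gene span given above, so it is not the first base of that span.
Vpreb3 chr10:75948050-75948299 (+ strand): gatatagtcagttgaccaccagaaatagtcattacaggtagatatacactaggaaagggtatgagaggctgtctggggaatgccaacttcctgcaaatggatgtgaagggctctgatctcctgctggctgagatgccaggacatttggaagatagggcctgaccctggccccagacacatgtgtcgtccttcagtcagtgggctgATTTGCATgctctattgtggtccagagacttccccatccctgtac
Igll1 chr16:16863986-16864235 (- strand): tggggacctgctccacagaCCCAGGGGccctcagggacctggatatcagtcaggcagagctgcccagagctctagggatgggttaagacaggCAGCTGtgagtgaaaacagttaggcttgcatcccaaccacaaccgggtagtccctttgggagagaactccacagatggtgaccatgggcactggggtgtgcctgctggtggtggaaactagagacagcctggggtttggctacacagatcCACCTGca
Cd79a chr7:24897247-24897496 (+ strand): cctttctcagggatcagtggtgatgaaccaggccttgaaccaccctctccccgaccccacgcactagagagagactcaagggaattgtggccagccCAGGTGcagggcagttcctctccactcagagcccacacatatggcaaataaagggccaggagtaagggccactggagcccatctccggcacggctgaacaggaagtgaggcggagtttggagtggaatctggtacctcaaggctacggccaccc
Blnk chr19:40994222-40994471 (- strand): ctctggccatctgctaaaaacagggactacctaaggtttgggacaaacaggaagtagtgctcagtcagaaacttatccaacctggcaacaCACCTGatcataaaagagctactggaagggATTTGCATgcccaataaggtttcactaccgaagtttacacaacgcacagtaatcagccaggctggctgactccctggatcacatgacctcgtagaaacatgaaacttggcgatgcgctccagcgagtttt
Xbp1 chr11:5520391-5520640 (+ strand): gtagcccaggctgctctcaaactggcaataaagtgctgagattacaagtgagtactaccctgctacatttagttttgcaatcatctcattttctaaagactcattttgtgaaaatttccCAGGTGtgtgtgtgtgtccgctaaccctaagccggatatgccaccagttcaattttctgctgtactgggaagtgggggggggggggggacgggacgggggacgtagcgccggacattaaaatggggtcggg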

How the data were processed

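The authors deposited 1 table of FPKM values. Per the labels' protocols, cells were sorted into Trizol and libraries were made by Smart-seq2 and Nextera XT and run on a HiSeq2500. The submitters' processing notes name CASAVA, bcl2fastq, STAR 2.5.3a, DESeq2 1.18.1 and the build mm10. For the read counter and annotation nothing is given in the sources used here. From the steps between the deposited FPKM values, whole reads were recovered for 16727 of 16728 genes above 0 (tolerance 0.02 reads), as the fewest reads the steps allow. Depth spanned 571537 to 9706323 reads, so L-MEP 3 and GFP+ 2 resolve low genes least.

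Genes that reached 1 FPKM in 3 or more libraries were fitted in 1 limma-trend model of log2(FPKM + 1) with 4 groups (8 residual degrees of freedom). Genes were called at a Benjamini-Hochberg adjusted p under 0.05 (R 4.3.3, limma 3.58.1, Python 3.11.15, pandas 2.3.3, matplotlib 3.10.9), and the fit was tested on simulated data. With 3 libraries per group, the smallest exact permutation p is 0.1. A fold against a group with no read uses a floor of 3 reads over that group. Floors and bounds cover counting error only.

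The members and gene lists were chosen with earlier results of these data known. Every library is given for members with a group mean of at least 5 FPKM or a call, the others by range, except Fcer2a, Bank1 and Spib, chosen after their values were seen. Of each further list, up to 3 called genes per direction with the smallest p could be named. Faim3 and Igj are other symbols of Fcmr and Jchain and were not found under those names. Alternatives were other pseudocounts, filters, scalings and weights, voom on the recovered reads, a replicate block and left-out libraries.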

Additional observations from a re-analysis of the deposited data

Results flagged for a closer look

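For 11 members the change in MEP and the change in marrow differed in the test of the difference itself (limma, adjusted p under 0.05, n = 3 per group), and each difference was positive, meaning a more positive change in MEP. Of these, 6 had at most 1 library of at least 1 FPKM outside control marrow and so entered the fit through that group; without the filter 12 of 32 members differed (3.40% of genes), 10 of the 11 among them. The 6 that entered through control marrow had means of 0 to 0.0524 FPKM in control MEP, with next to no room to fall there. The size of the difference was 3.64 for Cd79b (adjusted p = 0.00212), 3.84 for Vpreb1 (adjusted p = 0.00923) and 3.34 for Cd72 (adjusted p = 0.0105). It was 1.80 for Rag2, 1.89 for Fcrl1, 2.12 for Cd37 and 1.69 for Fcrla. It was 2.38 for Ebf1, 2.98 for Pou2af1 and 1.71 for Ms4a1, and 4.46 for Vpreb3. The Vpreb3 difference had an adjusted p of 0.0455 and passed in 8 of 24 alternatives, and the Ms4a1 difference (adjusted p = 0.0378) passed in 11 of 23. Without L-MEP 3, 13 members differed, beside 875 of all 11462 genes upward and 211 downward.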

How the results depend on the processing

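No call of a member changed direction in any alternative. The 15 falls in GFP+ marrow became 9 with a pseudocount of 0.1 and 7 with a filter of 5 FPKM, under which fewer genes were tested. Over all genes the falls were 691 of 11462 in the main fit, 568 with that pseudocount and 473 of 8431 with that filter. The 1 rise there became 0 with a pseudocount of 0.1, no filter, equal FPKM totals or quantile normalization. It became 2 with only the 2 groups, array weights, voom or without the 2 libraries of lowest depth. All genes called higher there went from 346 to 821, 1547, 804 and 793 in those last fits, in that order. The 1 fall in L-MEP became 2 with pseudocounts of 0.1 and 0.5 and without the 2 libraries of lowest depth. It became 3 with array weights or voom, and 0 with no filter or quantile normalization. All genes called lower there numbered 1409 in the main fit, 2900 with array weights and 1326 to 1538 in the others named. The 2 rises in L-MEP became 1 with only the 2 groups, 5 with array weights and 4 with voom. All genes called higher there went from 1567 to 957, 3251 and 1852 in those fits, in that order. A fit of only libraries without Xist, chosen after seeing the data, left replicate 3 alone in each Prdm16s group, so its counts are omitted. The 18 members higher in control marrow than in control MEP became 10 with a filter of 5 FPKM, where all such genes went from 1414 of 11462 to 1118 of 8431. The 1 member higher in GFP+ marrow than in L-MEP became 2 with a pseudocount of 0.5. It became 0 with no filter, equal totals, quantile normalization or only the 2 groups. It became 7 with array weights and without the 2 libraries of lowest depth, and 6 with voom. All genes called higher there went from 238 to 1773, 1144 and 1132 in those last fits, in that order. The reverse count of 0 became 2 with equal totals and 3 with array weights, where all such genes went from 112 to 502 and 1512. The 11 differences between the comparisons became 6 with a pseudocount of 0.1, 4 with a filter of 5 FPKM, 22 with array weights and 5 with voom. Over all genes, 518 differed upward and 42 downward in the main fit, and 1962 and 1004 with array weights. The numbers were 521 and 39 with that pseudocount, 355 and 27 of 8431 with that filter, and 796 and 97 with voom. The cause of these shifts was not tested.

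Leaving out 1 library at a time gave 12 to 17 falls and 0 to 2 rises in GFP+ marrow, 0 to 2 falls and 2 to 3 rises in L-MEP, 16 to 19 members higher in control marrow, 0 higher in control MEP, 0 to 5 higher in GFP+ marrow than in L-MEP, 0 the other way, and 7 to 13 differences. Of all 11462 genes, 354 to 1194 fell and 130 to 943 rose in GFP+ marrow in these fits. In L-MEP 921 to 1619 fell and 1017 to 1758 rose. Over all genes, 985 to 1955 were higher in control marrow and 35 to 1142 higher in GFP+ marrow than in L-MEP. Differences numbered 257 to 875 upward and 4 to 211 downward. The lone remaining samples in the Xist alternative were assumed to vary like the control groups. The main fit did not pair libraries by replicate number. Deviations from group means correlated below 0.1 between same-numbered libraries in at least 1 pair of every comparison. Between the Prdm16s groups, however, the same-numbered values (0.086, 0.215 and 0.149) were above every other-numbered one, the highest being 0.061. Between the control groups they were 0.497, 0.285 and 0.073. In the MEP and marrow comparisons they were at most 0.020. The sex pattern also ran alike by number in both Prdm16s groups, with Xist in replicates 1 and 2 and not in replicate 3. Shared animals between L-MEP and GFP+ marrow are thus possible, and the main fit would ignore them. Whether the numbers pair the samples is not settled by these values. With the replicate block the counts were 15 falls and 1 rise in GFP+ marrow, 1 fall and 2 rises in L-MEP, 18 members higher in control marrow, and 10 differences, with those of Ms4a1 and Vpreb3 lost and that of Cd79a gained. Of all 11462 genes that fit called 635 falls and 297 rises in GFP+ marrow and 1330 and 1500 in L-MEP. It called 1367 higher in control marrow, and 470 differences upward and 20 downward. Equal FPKM totals moved the median of all genes in marrow to -0.25. Dntt lost its fall in 9 of 25 alternatives (adjusted p up to 0.201), Vpreb2 in 10 of 24 (up to 0.252) and Igll1 in 3 of 25 (up to 0.0917). Cd24a lost its fall in L-MEP in 13 of 25 (up to 0.791) and Cd72 its rise in 2 of 25 (up to 0.150). In L-MEP 3, members below a few FPKM rest on single reads.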

Other observations

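Outside the members, Jchain, the joining chain of secreted antibodies, was at 72.9, 0.257 and 80.7 FPKM in control marrow 1, 2 and 3 and at 1.17, 11.9 and 0 FPKM in GFP+ marrow; it was chosen after its values were seen. Control marrow 2 was thus the library with little Jchain, while its Vpreb3 (69.6 FPKM) and Blk (2.84 FPKM) were the highest of the 3. Mzb1 did not share that split, at 11.1, 9.77 and 12.3 FPKM. Sdc1, the syndecan of plasma cells, was at 1.58, 2.01 and 1.79 FPKM in control marrow and 0, 0 and 0.0386 FPKM in GFP+ marrow, and fell by 1.46 ± 0.24 (limma, adjusted p = 0.00238). Sdc1 also fell in L-MEP against control MEP, by 1.06 ± 0.24 (limma, adjusted p = 0.00618), so its RNA was present in control MEP too. Cd93, a surface protein of early B cells and of myeloid progenitors, was at 0.307, 0.669 and 0.147 FPKM in control MEP and 9.15, 7.06 and 39.1 FPKM in L-MEP, and rose by 3.45 ± 0.49 (adjusted p = 0.000390).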
